A study of Homo sapiens with 4 samples.

Results

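Cytochrome P450 (CYP) genes encode haem-containing monooxygenases, and their chromatin was described here in MHCC97L, an established human hepatocellular carcinoma (HCC) cell line. The members were the protein-coding genes whose symbols consist of CYP, a family number, a subfamily letter and a gene number. There were 55 of them among 19974 protein-coding genes on chromosomes 1 to 22 and X. By family number they fell into 23 genes of the families CYP1 to CYP3, which hold most drug-metabolising enzymes, 12 genes of the family CYP4, which holds fatty acid hydroxylases, 16 genes of families known mostly for sterols and steroids, and 4 genes of the families CYP20 and CYP26.

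The marks were mapped by ChIP-seq, the sequencing of immunoprecipitated chromatin, with antibodies against trimethylated lysine 4 of histone H3 (H3K4me3), acetylated lysine 27 (H3K27ac) and monomethylated lysine 4 (H3K4me1). The cells carried the genotype label WT, were labelled as HCC cells of liver, and were untreated and grown in medium with fetal bovine serum. Each mark had 1 library, so no difference could be tested against replicates, and the shares below are set beside the same shares over all protein-coding genes. The input library was not analysed here.

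Most drug-metabolising P450s sit in the endoplasmic reticulum and take electrons from the reductase POR, while several sterol and steroid P450s sit in mitochondria and take them from ferredoxin. Adult hepatocytes are the main site of drug-metabolising CYP enzymes, of bile acid synthesis from cholesterol and of fatty acid omega-hydroxylation. H3K4me3 is typical of promoters, H3K27ac of active promoters and enhancers, and H3K4me1 of enhancers and promoter flanks.

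The label of liver cancer cells was checked against markers. Of 8 hepatocyte markers, TF, at a window shared with TOPBP1, and HNF4A had H3K4me3 and H3K27ac summits at the same gene boundary. In FOXA2 both marks lay in the gene and scored up to 95.2 and 56.4, and ALB, APOA2 and TTR had no summit in the gene. Of 3 epithelial markers KRT8 and KRT18 had the pair at a window they share, with H3K4me3 of 107.3, and CDH1 had both marks in the gene. Of 4 markers of other liver cells CD68 had the pair, at a window shared with EIF4A1, PECAM1 and PTPRC had both marks in the gene, with H3K27ac scores of up to 72.0 and 38.8, and COL1A1 had no summit. Both marks were thus found in the genes of 3 of 8 hepatocyte markers, 3 of 3 epithelial markers and 3 of 4 markers of other liver cells, against 61.2% of all protein-coding genes. By these counts the summits did not set hepatocyte markers above those of other liver cells. Whether these marker values bear on the CYP counts below was not tested.

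Sequence at the annotated starts is shown first because CpG content differed between starts with and without H3K4me3. RefSeq gave windows of 300 bp, from 250 bp before to 50 bp after a start, on GRCh38.p14 for 52 starts of 39 members. The window of CYP51A1, the lanosterol demethylase gene of cholesterol synthesis, lies on the minus strand at chr7:92134428-92134727. That of the outer start of CYP4F11, a fatty acid omega-hydroxylase gene, lies on the minus strand at chr19:15934818-15935117. Both are printed 5′ to 3′ with CpG dinucleotides in capitals, of which there are 24 in the CYP51A1 window and 5 in the CYP4F11 window.
CYP51A1: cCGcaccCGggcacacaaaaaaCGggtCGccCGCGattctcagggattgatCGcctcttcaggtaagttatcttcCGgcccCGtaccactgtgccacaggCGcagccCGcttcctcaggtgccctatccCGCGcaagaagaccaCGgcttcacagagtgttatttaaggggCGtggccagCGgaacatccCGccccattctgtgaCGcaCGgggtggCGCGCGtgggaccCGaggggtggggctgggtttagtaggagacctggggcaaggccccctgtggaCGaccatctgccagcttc
CYP4F11: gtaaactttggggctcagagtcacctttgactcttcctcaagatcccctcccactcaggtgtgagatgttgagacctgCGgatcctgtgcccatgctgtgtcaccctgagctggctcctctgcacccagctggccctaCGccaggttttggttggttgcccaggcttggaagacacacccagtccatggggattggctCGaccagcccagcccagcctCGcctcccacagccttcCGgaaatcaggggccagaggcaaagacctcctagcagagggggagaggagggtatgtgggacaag

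The minus-strand windows of CYP1A1 (chr15:74725479-74725778), which encodes an oxidase of polycyclic aromatic hydrocarbons, CYP3A4 (chr7:99784135-99784434), the main drug-metabolising CYP gene of adult liver, CYP3A7 (chr7:99735147-99735446), its fetal counterpart, and CYP3A5 (chr7:99679947-99680246) are printed to compare neighbours that differed in their marks. Capitals mark matches to GCGTG, the core of the aryl hydrocarbon receptor element, to TATAAA, and to the half-sites TGAACT and AGGTCA with 6 bases between them, the everted repeat ER6 bound by the pregnane X receptor. Both strands were searched, and no printed match overlaps another.
CYP1A1: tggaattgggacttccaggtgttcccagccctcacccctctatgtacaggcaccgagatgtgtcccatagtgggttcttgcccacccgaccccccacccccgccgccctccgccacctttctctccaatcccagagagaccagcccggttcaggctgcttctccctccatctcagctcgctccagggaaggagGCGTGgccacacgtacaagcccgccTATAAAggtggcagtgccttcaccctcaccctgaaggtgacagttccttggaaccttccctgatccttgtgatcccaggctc
CYP3A4: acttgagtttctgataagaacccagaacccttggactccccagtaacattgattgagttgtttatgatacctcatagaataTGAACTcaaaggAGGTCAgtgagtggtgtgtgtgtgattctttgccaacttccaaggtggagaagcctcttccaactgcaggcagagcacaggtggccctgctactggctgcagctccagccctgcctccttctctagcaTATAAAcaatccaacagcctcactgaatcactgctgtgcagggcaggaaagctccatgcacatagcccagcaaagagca
CYP3A7: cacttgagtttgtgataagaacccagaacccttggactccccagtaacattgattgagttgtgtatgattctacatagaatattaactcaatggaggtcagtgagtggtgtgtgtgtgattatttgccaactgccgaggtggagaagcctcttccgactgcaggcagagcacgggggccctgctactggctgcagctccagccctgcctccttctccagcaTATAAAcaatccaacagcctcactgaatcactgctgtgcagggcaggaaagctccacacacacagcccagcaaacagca
CYP3A5: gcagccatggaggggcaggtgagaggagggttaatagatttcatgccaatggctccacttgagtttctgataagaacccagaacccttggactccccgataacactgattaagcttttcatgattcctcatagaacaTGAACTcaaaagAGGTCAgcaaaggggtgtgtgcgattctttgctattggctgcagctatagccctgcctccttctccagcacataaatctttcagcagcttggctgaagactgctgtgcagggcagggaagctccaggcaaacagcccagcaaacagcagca

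CYP1A1 had GCGTG 57 bp and TATAAA 32 bp before the start, and CYP3A4 and CYP3A7 each had TATAAA 29 bp before it. ER6 began 169 bp before the CYP3A4 start and 113 bp before the CYP3A5 start. In the CYP3A7 window, which is 93.7% identical to that of CYP3A4, ER6 was not matched exactly. There the first half-site reads ttaact in place of TGAACT, and AGGTCA follows after 6 bases. Inexact matches were not searched. A match is a description of letters and not a binding site.

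**Figure D1:**
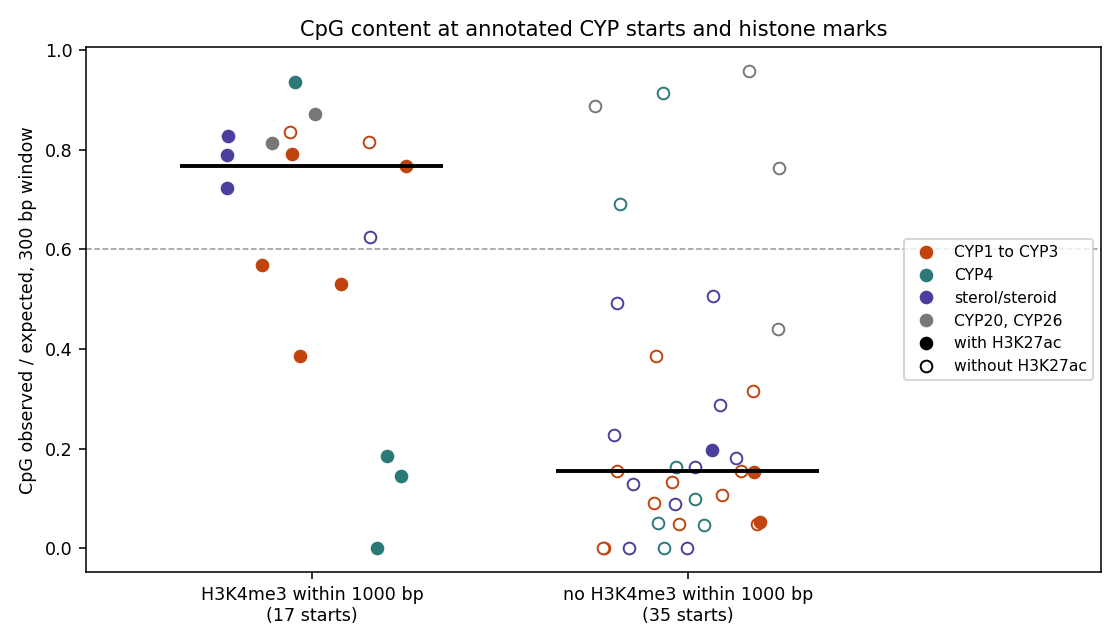
Each point is an annotated CYP start, with the ratio of observed to expected CpG in its 300 bp window on the y axis; starts with an H3K4me3 summit within 1000 bp stand on the left (17), those without on the right (35). Filled points had H3K27ac within 1000 bp, thick lines are medians (0.768 with and 0.154 without H3K4me3), the dashed line is at 0.6, and the 3 lowest points with H3K4me3 belong to CYP4F3 and CYP4F11.

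CYP starts were poor in CpG. The median ratio of observed to expected CpG was 0.212 over the 52 CYP windows and 0.738 over the 22132 windows of all protein-coding genes with an entry. A ratio of at least 0.6 was reached by 16 CYP windows (30.8%) and by 62.2% of all windows. Within these CpG-rich windows an H3K4me3 summit lay within 1000 bp of 11 of 16 CYP starts (68.8%, 44.4 to 85.8), close to the 77.8% of all starts. Within the CpG-poor windows 6 of 36 CYP starts had one (16.7%, 7.87 to 31.9), against 22.8% of all CpG-poor starts. Both CYP intervals for H3K4me3 held the share of all starts. For H3K27ac the CpG-rich CYP starts did not reach it, with 8 of 16 (50%, 28 to 72), against 73.1% of all CpG-rich starts. The CpG-poor CYP starts had H3K27ac at 9 of 36 (25%, 13.8 to 41.1), against 21.1%. Intervals here and below are 95% Wilson intervals that cover counting error only, and starts of 1 gene can share a summit.

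The 6 CpG-poor CYP starts with H3K4me3 belonged to CYP1A1 (ratio 0.386), CYP4F3 (0.146), CYP4F11 (0.185 and 0) and CYP2R1 (0.530 and 0.568). CpG-rich starts without an H3K4me3 summit belonged to CYP26A1, CYP26B1, CYP26C1, CYP4X1 and CYP4F22. TATAAA was found in 18 of 52 CYP windows (34.6%), against 9.46% of all windows. With H3K4me3 it was found in 1 of 17 CYP windows, that of CYP1A1 (5.88%, near the 4.93% of all windows with H3K4me3). Without H3K4me3 it was found in 17 of 35 (48.6%, against 15.5% of all windows without H3K4me3). These windows are not independent. The near-identical windows of CYP2A6, CYP2A7 and CYP2A13, and those of CYP3A4 and CYP3A7, each counted separately with TATAAA, and CYP19A1 gave 7 of the 35. GCGTG was found in 13 CYP windows (25%, against 42.9% of all), and exact ER6 in 2, those of CYP3A4 and CYP3A5, which are 2 of the 3 windows with it among all 22132. The ER6 motif was added after the promoter sequences were seen, so this count is a description only. The sterol regulatory element motif TCACNCCAC, searched on both strands, was in none of the CYP windows and in 1.13% of all windows.

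Fewer CYP genes than protein-coding genes at large carried promoter marks. A gene counted as marked when a summit, the 1 bp peak position of the authors' list, lay within 1000 bp of either gene boundary. H3K4me3 was at a boundary of 17 of 55 CYP genes (30.9%, 20.3 to 44.0), against 56.8% of all protein-coding genes. H3K27ac was at a boundary of 15 CYP genes (27.3%, 17.3 to 40.2), against 54.1%. Both lay at the same boundary in 12 CYP genes (21.8%, 12.9 to 34.4), against 47.4%. The H3K4me1 count of 6 CYP genes (10.9%, 5.10 to 21.8) was near the 12.4% of all genes. No mark was at a boundary of 34 CYP genes (61.8%, 48.6 to 73.5), against 35.2%.

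The same order held when the whole gene with 1000 bp on either side was searched. H3K4me3 was then found in 27 CYP genes (49.1%) and 69.0% of all genes, H3K27ac in 23 (41.8%) and 64.5%, and H3K4me1 in 18 (32.7%) and 40.4%. H3K4me3 and H3K27ac were both found in 19 CYP genes (34.5%, against 61.2%), and no mark in 22 (40.0%, 28.1 to 53.2, against 25.7%). At the annotated starts of the 39 CYP genes with an entry, H3K4me3 was found in 13 (33.3%, against 62.0%), H3K27ac in 13 (33.3%, against 57.6%) and both at 1 start in 10 (25.6%, against 53.1%).

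**Figure D2:**
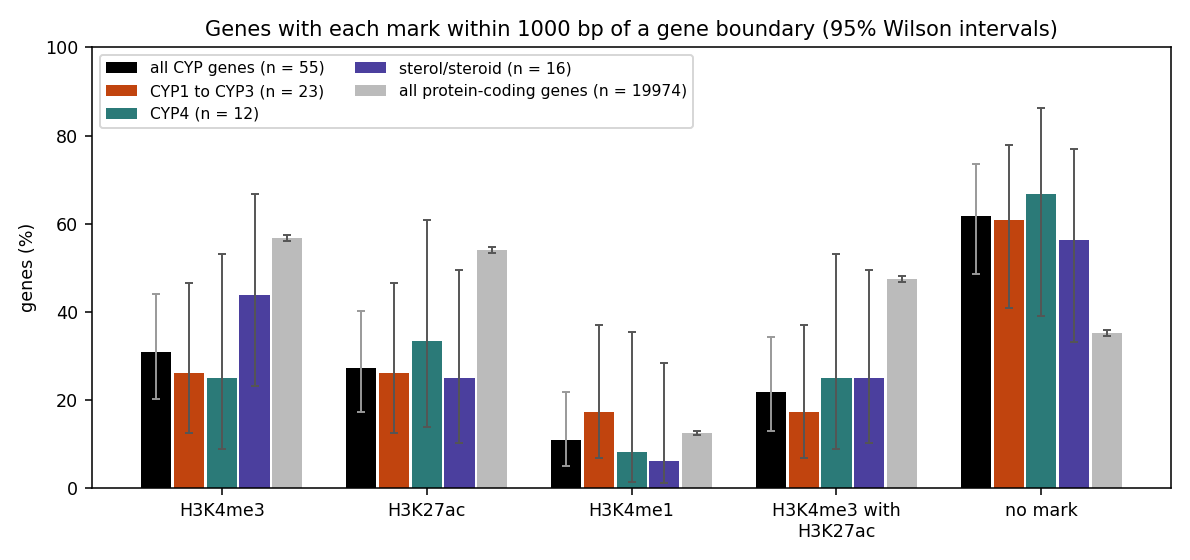
Bars give the percent of genes with each mark within 1000 bp of a gene boundary, for all 55 CYP genes, the classes CYP1 to CYP3, CYP4 and sterol or steroid, and all protein-coding genes in grey; error bars are 95% Wilson intervals. The bars of all CYP genes stand below the grey ones for H3K4me3, H3K27ac and their pair, and above for no mark (61.8% and 35.2%), while the class intervals overlap each other.

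The family classes could not be told apart by these counts. H3K4me3 with H3K27ac was at the same boundary in 4 of 23 CYP1 to CYP3 genes (17.4%, 6.98 to 37.1), 3 of 12 CYP4 genes (25%, 8.89 to 53.2) and 4 of 16 sterol or steroid genes (25%, 10.2 to 49.5). H3K4me3 alone or with H3K27ac was at a boundary of 6 CYP1 to CYP3 genes (26.1%, 12.5 to 46.5), 3 CYP4 genes (25%) and 7 sterol or steroid genes (43.8%, 23.1 to 66.8). No summit in the gene was found for 6 of 23 (26.1%, 12.5 to 46.5), 8 of 12 (66.7%, 39.1 to 86.2) and 6 of 16 genes (37.5%, 18.5 to 61.4) in the same order of classes. The share over all protein-coding genes was 25.7%. The share of CYP1 to CYP3 was near it, and the CYP4 interval lay above it, although the class intervals overlap each other. Of the 8 CYP4 genes, 5 are neighbours on chromosome 1.

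The summit scores are the authors' −log10 values, used only to rank summits within 1 list. In the lists analysed, 46078 H3K4me3 summits had a median score of 8.23, 70028 H3K27ac summits one of 8.40 and 86366 H3K4me1 summits one of 4.58. A low score from few cells with a mark and one from a weak mark in every cell cannot be told apart. At boundaries the best H3K4me3 score had a median of 41.2 in the 17 marked CYP genes and 52.1 in all marked genes. For H3K27ac it was 47.7 in the 15 marked CYP genes and 30.1 in all marked genes, and the class medians lay on both sides of the value for all genes. The H3K27ac median was 16.3 in 6 CYP1 to CYP3 genes, 53.9 in 4 CYP4 genes and 62.7 in 4 sterol or steroid genes. The H3K4me3 medians of the same classes, 30.0 in 6 genes, 41.2 in 3 and 42.9 in 7, all lay below that of all marked genes. Scores of 10 or more were found in 14 of the 17 CYP genes (82.4%) and 91.0% of all genes for H3K4me3, and in 13 of the 15 CYP genes (86.7%) and 85.7% of all genes for H3K27ac.

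**Figure D3:**
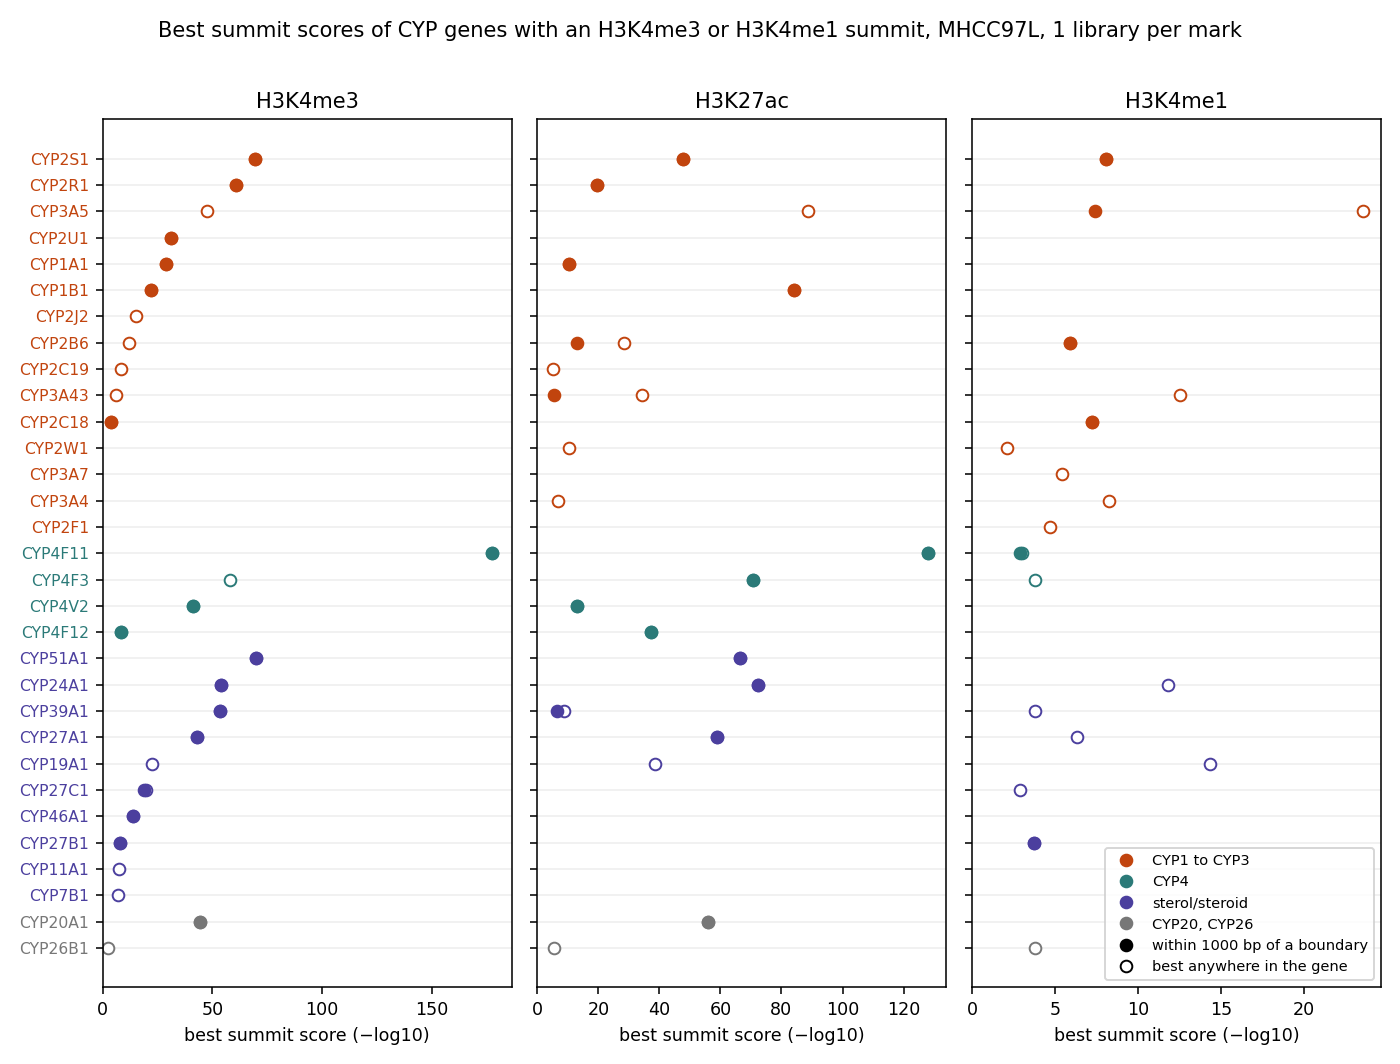
Best summit score (−log10, a separate axis for each mark) of the 31 CYP genes with an H3K4me3 or H3K4me1 summit in the gene, coloured by family class. Filled points lie within 1000 bp of a gene boundary and open points elsewhere in the gene; CYP4F11 stands apart in H3K4me3 (177.5) and H3K27ac (127.9).

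In the fatty acid family, CYP4F11 (chr19:15912377-15934867) had the highest H3K4me3 score of all 46078 summits, 177.5. Its H3K27ac summit, 21 bp away, scored 127.9 and ranked 181 of 70028. These summits lay 923 and 902 bp downstream of the outer start printed above, and 585 and 564 bp downstream of the inner one, whose window holds no CpG. The gene held 6 H3K4me3 summits, of which 2 more scored 115.2 and 70.2, and its H3K4me1 scores reached only 3.01.

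CYP4F3, which encodes an omega-hydroxylase of leukotriene B4, had an H3K27ac summit of 70.5 lying 273 bp upstream of its annotated start and an H3K4me3 summit of 58.1 lying 789 bp downstream. That H3K4me3 summit is 1204 bp from the gene boundary and so outside the boundary window. CYP4F12 had H3K4me3 of 8.32 and H3K27ac of 37.3, 1320 bp apart. CYP4V2, the gene of Bietti crystalline corneoretinal dystrophy, had 41.2 and 13.1, 33 bp apart. CYP4F2, an omega-hydroxylase gene of vitamin K and leukotriene breakdown, CYP4F8 and CYP4F22, a skin acylceramide synthesis gene, had no summit. The same held for CYP4B1, CYP4A11, CYP4X1, CYP4Z1 and CYP4A22, which neighbour each other on chromosome 1. No summit of any mark lay in the 350682 bp from the first to the last of them.

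The sterol genes with both promoter marks were CYP51A1, CYP24A1, CYP39A1 and CYP27A1. CYP51A1 (chr7:92112153-92134803) had H3K4me3 of 69.7 and H3K27ac of 66.4, 290 bp apart. CYP24A1 (chr20:54143538-54173986), which encodes the enzyme that inactivates vitamin D, had 53.9 and 72.2, 1129 bp apart. CYP39A1, an oxysterol hydroxylase gene, had 53.4 and 6.51, 3 bp apart, at a boundary window shared with SLC25A27. CYP27A1, the mitochondrial sterol hydroxylase gene of the alternative bile acid pathway, had 42.9 and 59.0, 682 bp apart. H3K4me3 without H3K27ac at a boundary was found for CYP27C1, a retinoid desaturase gene (18.9), CYP46A1, the brain cholesterol hydroxylase gene (14.0), and CYP27B1, the vitamin D activating enzyme gene of kidney (7.87).

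No summit lay at a boundary of the other 9 of 16 sterol and steroid genes (56.25%, 33.2 to 76.9, against 35.2% of all protein-coding genes). Of the 16, 6 had no summit in the gene either (37.5%, 18.5 to 61.4), and this interval held the 25.7% of all genes. CYP7A1, the rate-limiting enzyme gene of bile acid synthesis, had no summit of any mark, and the nearest H3K27ac summit lay 53451 bp from the gene. CYP8B1, the gene needed for cholic acid, had none either, with H3K27ac 67344 bp away. CYP7B1, an oxysterol hydroxylase gene, had 1 H3K4me3 summit of 6.95, inside the gene. CYP17A1, CYP21A2, CYP11B1 and CYP11B2, enzyme genes of adrenal steroid synthesis, had no summit, and CYP11A1, the cholesterol side-chain cleavage gene, had 1 H3K4me3 summit of 7.26 inside the gene. CYP19A1 (chr15:51208057-51338596), the aromatase gene, had 5 H3K4me3, 10 H3K27ac and 18 H3K4me1 summits inside the gene, with best scores of 22.3, 38.7 and 14.3. None lay within 1000 bp of its outer boundaries. Of its 7 annotated starts 1 had H3K27ac within 1000 bp, with a score of 11.5 at 302 bp.

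In the families CYP1 to CYP3, both promoter marks shared a boundary in CYP2R1, CYP2S1, CYP1A1 and CYP1B1. CYP2R1, a vitamin D hydroxylase gene, had H3K4me3 of 60.5 and H3K27ac of 19.5, 24 bp apart. CYP2S1 (chr19:41193219-41207539), expressed mainly outside the liver, had 69.6 and 47.7, 250 bp apart, at a boundary window shared with LOC124904790. CYP1A1 (chr15:74719542-74725528) had 29.0 and 10.5, 7 bp apart, at 748 and 741 bp upstream of its start. CYP1B1 (chr2:38067509-38076151), an oestradiol and procarcinogen hydroxylase gene, had 22.2 and 84.0, 639 bp apart, with 5 H3K4me3 summits in the gene.

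CYP2U1, a fatty acid hydroxylase gene, had H3K4me3 of 31.1 without H3K27ac, and CYP2C18 had 3.98. Just outside the CYP2C18 window, 1068 bp and 3533 bp left of the gene, lay H3K27ac summits of 51.0 and 85.8. CYP2J2, an arachidonic acid epoxygenase gene, had H3K4me3 of 15.2 lying 212 bp from its annotated start, which is inside the outer gene boundary, and no H3K27ac in the gene. Over all 12 members with both marks the median spacing of the summits was 270 bp, against 332 bp in the 9463 genes with the pair. H3K4me1 lay within 1000 bp of the H3K4me3 summit in 1 of the 12 (8.33%, against 6.29% of the 9463).

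Drug-metabolising genes of liver differed in their summits. The share of CYP1 to CYP3 genes with no summit in the gene (26.1%) was near the 25.7% of all protein-coding genes. CYP1A2, the caffeine-metabolising enzyme gene, CYP2C8, CYP2D6 and CYP2E1, the ethanol-oxidising enzyme gene, had no summit of any mark, and their nearest H3K27ac summits lay 21386, 10060, 35245 and 98431 bp from the gene in that order. CYP2C19, which acts on proton pump inhibitors, had H3K4me3 of 8.14 and H3K27ac of 5.04 inside the gene. CYP2B6, a target of the receptor CAR, had H3K27ac of 13.1 at 79 bp and H3K4me1 of 5.90 at 7 bp from its start, without H3K4me3 there. Farther inside the gene its best H3K27ac score was 28.3, with an H3K4me3 summit of 12.1 lying 667 bp away.

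The CYP3A neighbours differed in their marks. CYP3A5 (chr7:99648194-99679996) had H3K4me3 of 47.6 and H3K27ac of 88.8, 3 bp apart, at 1038 and 1041 bp downstream of its start, just outside the 1000 bp window. H3K4me1 summits of 23.6 (rank 112 of 86366), 7.39 and 2.75 lay in the same gene. CYP3A4 (chr7:99756967-99784184) had no H3K4me3 summit, H3K27ac of 6.88 and 3.89 at 10306 and 10791 bp downstream of its start, and a best H3K4me1 score of 8.27. CYP3A7 (chr7:99705036-99735196) had 1 H3K4me1 summit of 5.43 and neither other mark. Strong H3K27ac summits lay between these genes, one of 74.6 in the gap between CYP3A5 and CYP3A7 and one of 85.0 in the gap between CYP3A7 and CYP3A4. Both fell near a boundary of a gene of some type and are not among the distal sites below. CYP3A43 had a weak H3K27ac summit of 5.31 at 1 bp from its start and one of 34.3 at 1358 bp. Inside the gene it also had H3K4me3 of 4.34 and 6.13 and an H3K4me1 summit of 12.5, which ranked 2647 of 86366. Beside the printed windows, ER6 was thus matched in CYP3A5, which had a strong summit pair near its start, and in CYP3A4, which had none.

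Absence of a summit is uncertain where copies are near-identical, since reads may have been placed in either copy or dropped. Besides CYP3A4 and CYP3A7, this holds for CYP2A6 and CYP2A7 (promoter windows 95.7% identical), CYP2A6 and CYP2A13 (90.1%), and CYP2A7 and CYP2A13 (89.8%). CYP2A6, the nicotine oxidase gene, had 1 weak H3K27ac summit of 3.42, and CYP2A7 and CYP2A13 had none. CYP21A2 and CYP2D6 also have near-identical pseudogenes. Identity was computed only between promoter windows of neighbouring members with annotated starts. CYP4A11, CYP4A22, CYP11B1 and CYP11B2 have no such entry and were not compared. The list of copies is thus not complete, and the absence of summits at these genes carries the same uncertainty. Among the remaining CYP2 genes CYP2W1 had H3K27ac of 10.2 and H3K4me1 of 2.11 inside the gene, and CYP2F1 had H3K4me1 of 4.67.

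Summit density was read first in 3 clusters of neighbouring CYP genes. The stretch from CYP2A6 to CYP2S1 (chr19:40843541-41207539) held 12.02 H3K27ac and 14.5 H3K4me1 summits per 100 kb, against 2.31 and 2.85 over the genome, with 1000 bp on either side of a cluster counted in. The CYP3A cluster (chr7:99648194-99866093) held 7.28 and 9.10 and the CYP4F cluster (chr19:15508525-15934867) 3.04 and 1.40. All summits in a stretch were counted, and each stretch also holds other protein-coding genes. These are LOC124904790 in the first, ZSCAN25 and CYP3A7-CYP3A51P in the CYP3A cluster, and OR10H genes and LOC124900418 in the CYP4F cluster. In the first stretch no H3K27ac summit lay between 160.1 and 316.1 kb from the left edge, where CYP2A13 and CYP2F1 sit. The densities thus do not describe the CYP genes alone, and the genome values were not matched for gene content. From CYP11A1 to CYP1A2, with 6 other protein-coding genes, the densities were 4.04 and 6.42. No summit of any mark lay in the CYP4 stretch on chromosome 1 or in that of CYP11B1 and CYP11B2. The stretch of CYP26C1 and CYP26A1 held 1 H3K4me3 summit and neither other mark.

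**Figure D4:**
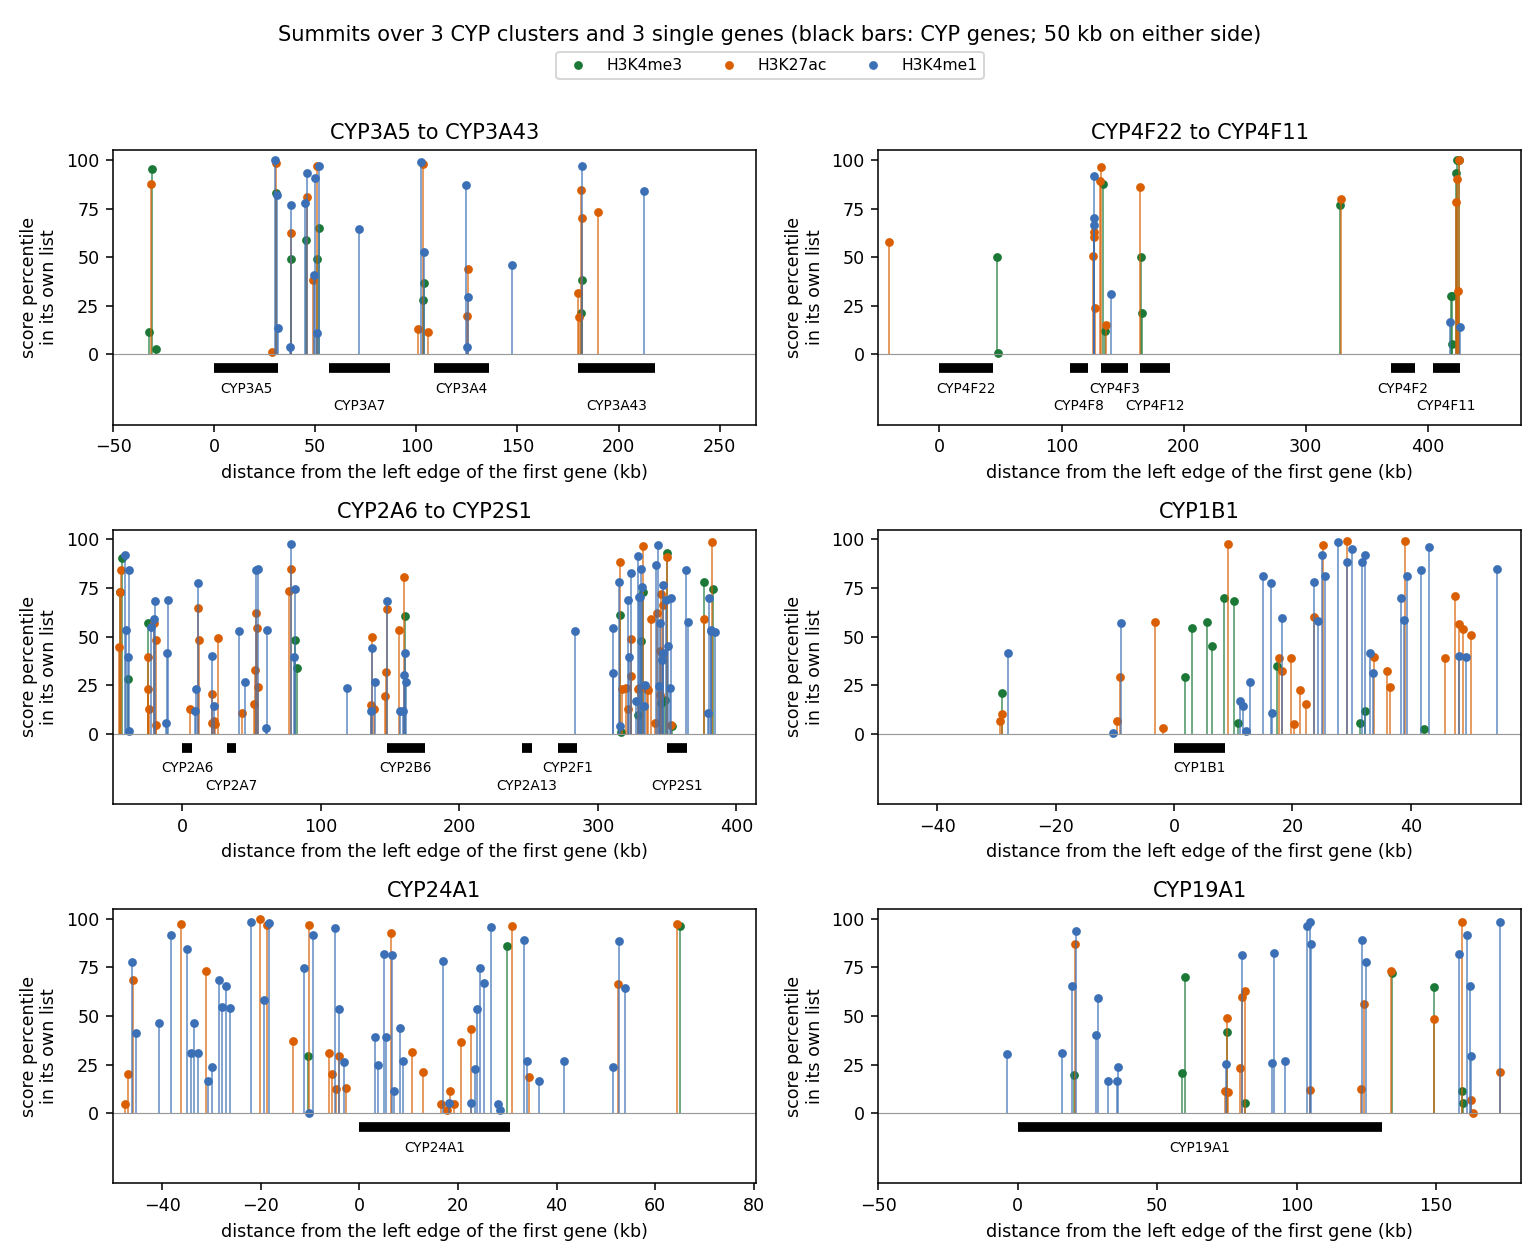
Summits of the 3 marks along 3 CYP clusters and 3 single genes, with the distance from the left edge of the first gene in kb on the x axis and the percentile of the score in its own list on the y axis; black bars are CYP genes. The 3 marks reach high percentiles together near the right end of CYP3A5, H3K4me3 and H3K27ac do at the left end of CYP2S1, CYP4F2 stands empty, and CYP1B1, CYP24A1 and CYP19A1 have rows of H3K27ac and H3K4me1 summits beside or inside the gene.

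CYP genes had about as many H3K27ac summits away from gene boundaries as other genes. A distal site was an H3K27ac summit farther than 2500 bp from the boundaries of all genes, coding or not, and it was counted for each gene within 50000 bp. At least 1 was found for 33 of 55 CYP genes (60.0%, 46.8 to 71.9), against 60.9% of all protein-coding genes. At least 5 were found for 14 (25.5%, against 23.4%). The median was 1 per gene for CYP genes (range 0 to 24) and 1 for all genes (0 to 137). By class it was 2 for CYP1 to CYP3 (0 to 21), 0 for CYP4 (0 to 5) and 0.5 for the sterol and steroid genes (0 to 24). In the same order, 69.6% (49.1 to 84.4), 41.7% (19.3 to 68) and 50% (28 to 72) of genes had any site, and these intervals overlap. For sites over 5000 bp from boundaries the shares were 69.6% (49.1 to 84.4), 0% (0 to 24.25) and 37.5% (18.5 to 61.4). The share of all protein-coding genes was then 51.5%. Neighbouring members share sites, and the 175 assignments came from 134 distinct sites, of which 85 (63.4%) had H3K4me1 within 1000 bp, against 65.9% of all 43996 distal sites.

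CYP24A1 had the most, 24, of which 16 had H3K4me1, 9 lay inside the gene and 20 had CYP24A1 as their nearest protein-coding gene. As many or more were found for 1.19% of all protein-coding genes. The best scored 145.1 at 20217 bp from the gene and ranked 79 of 70028, and 4 others outside or inside the gene scored 80.7, 75.2, 74.5 and 52.6. CYP1B1 had 21, 13 of them with H3K4me1 and 18 nearest to it, with the best at 106.3, 98.9 and 78.9 lying 30389, 20545 and 16475 bp from the gene. As many or more were found for 1.72% of all genes. Both genes were named for their high counts among the CYP genes, so such low shares are partly set by the choice. CYP19A1 had 14, of which 12 had H3K4me1 and 9 lay inside the gene, and its best, 86.3, was nearest to GLDN. Next among the sterol and steroid genes was CYP27A1 with 4, all nearest to TTLL4.

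Other high counts lay in shared neighbourhoods. CYP2S1 had 15 sites, of which 1 had it as the nearest protein-coding gene, and the best scored 91.2 and was nearest to AXL. CYP2A6 had 14 and CYP2A7 13, 12 of them in common, and no score there was above 20.4. CYP4F3, CYP4F8 and CYP4F12 counted the same 5 sites, with a best score of 13.1. Among CYP20 and CYP26 genes CYP26B1, which clears retinoic acid, had most with 3. CYP1A1, CYP51A1, CYP4V2 and CYP2R1 had the pair of promoter marks and no distal site, and CYP2U1, CYP27C1 and CYP27B1 had H3K4me3 at a boundary and no distal site.

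**Figure D5:**
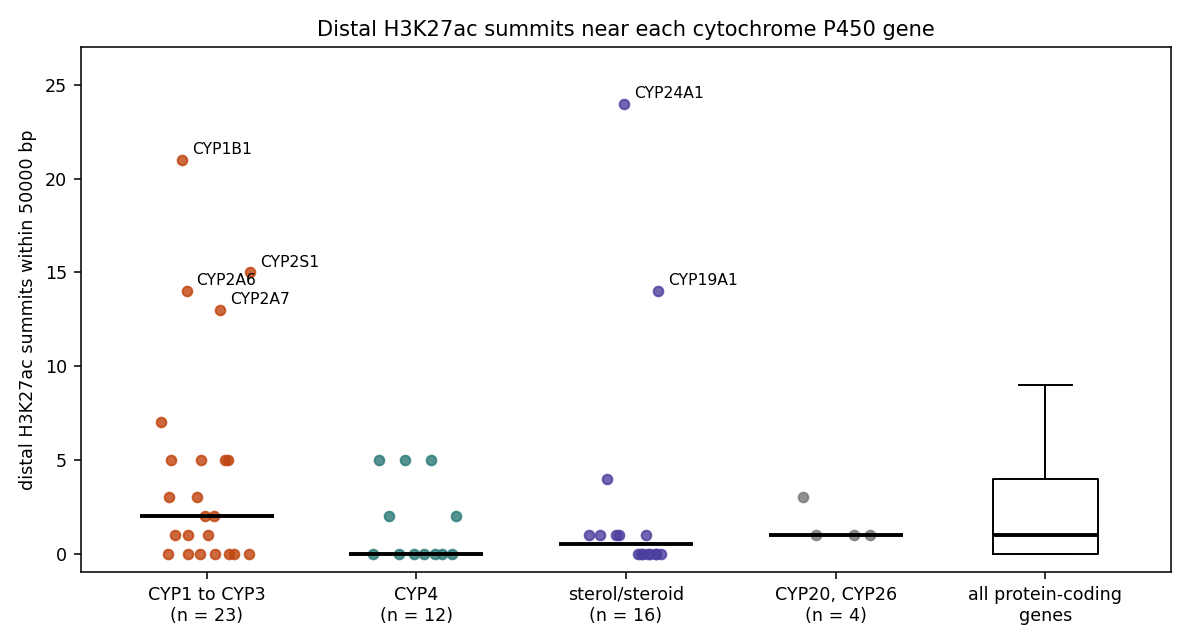
Each point is a CYP gene, with its number of distal H3K27ac summits within 50000 bp on the y axis, by family class; thick lines are medians. The box for all protein-coding genes spans percentiles 25 to 75 with its median and whiskers at percentiles 10 and 90. Of 55 CYP genes 6 stand above the upper whisker of 9, which by definition at most 10% of all protein-coding genes exceed. Among the 6, CYP2A6 and CYP2A7 share 12 sites.

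In the families CYP20 and CYP26, CYP20A1, whose substrate is not known, had H3K4me3 of 44.2 and H3K27ac of 55.8, 554 bp apart. CYP26A1, CYP26B1 and CYP26C1, which clear retinoic acid, had none at their boundaries. Inside the gene CYP26B1 had H3K4me3 of 2.63, H3K27ac of 5.37 and H3K4me1 of 3.77, and CYP26A1 and CYP26C1 had no summit. H3K4me3 summits lay 1236 bp upstream of the outer CYP26A1 start (12.1) and 1026 bp upstream of the CYP26B1 start (19.3).

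The listed redox partner and haem supply genes carried promoter marks. The pair of H3K4me3 and H3K27ac was at 1 boundary in all 8 genes of a list of electron donors and haem supply, against 47.4% of all protein-coding genes. The list was chosen with earlier results of these data known, and the shares were not matched for CpG content. In FDX1 the boundary H3K4me3 score was only 3.88, against 68.15 in the gene. POR had scores of 67.3 and 57.9, at a window shared with TMEM120A, and ALAS1, the first enzyme gene of haem synthesis, had 75.9 and 16.7. FDXR, the ferredoxin reductase gene, had 45.5 and 36.1. Of 14 genes of CYP regulators 8 had the pair at a boundary, near the 47.4% of all genes, and 12 had both marks in the gene, against 61.2%. ARNT, the partner of the aryl hydrocarbon receptor, had 92.0 and 80.8, and AHR itself had 79.1 for H3K4me3 in the gene and 51.0 for H3K27ac at a boundary. HNF4A, a nuclear receptor gene of hepatocytes, had 71.9 and 57.6. NR1I2, the pregnane X receptor gene, had best scores in the gene of 8.07 and 19.3, and NR1I3, the gene of CAR, had no summit of any mark. The P450 genes outside the symbol rule, TBXAS1, the thromboxane synthase gene, and PTGIS, the prostacyclin synthase gene, had best H3K27ac scores in the gene of 119.7 and 54.5 and best H3K4me3 scores of 22.3 and 5.34.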

How the data were processed

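ChIP-seq of 3 histone marks in MHCC97L cells gave 1 library and 1 summit list per mark. The authors used MACS2, Bowtie, Picard and deepTools with build hg38, per the submitters' processing notes. Versions, settings and any input control were not given in the sources used here. Scores in the deposited lists are −log10 values, and whether of p-values or q-values is not stated. Such values rise with read depth, which is unknown, so scores were ranked only within 1 list. Peaks were listed for single libraries, with no pooling of replicates.

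Summits on chromosomes 1 to 22 and X were kept; 185 H3K4me3, 273 H3K27ac and 61 H3K4me1 summits elsewhere were left out. Gene limits, starts and windows came from RefSeq on GRCh38.p14; exons were not used here. Boundaries stood for promoters, and 39 of 55 members also had annotated starts; CYP11B1, CYP11B2, CYP1B1, CYP24A1, CYP27B1, CYP2C18, CYP2D6, CYP2F1, CYP46A1, CYP4A11, CYP4A22, CYP4F12, CYP7A1, CYP7B1 and CYP8B1 are among those with no entry, and the values of 1 member are not reported here. Members and lists were chosen with earlier results of these data known, and the ER6 motif was added after the promoter sequences were seen. Values are given for members with H3K4me3, for the 3 members of each class with most distal sites and for chosen drug, bile acid and cholesterol enzyme genes; unmarked members are listed by name. The planned protein identity was replaced by identity of promoter windows, aligned globally. Windows, score and distance limits were varied. Scripts (Python 3.11.15, pandas 2.3.3, numpy 2.4.6, scipy 1.17.1, Biopython 1.88) were tested on simulated data.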

Additional observations from a re-analysis of the deposited data

How the results depend on the processing

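Counts of CYP genes depended on where summits were looked for. H3K4me3 was at a boundary of 17 CYP genes within 1000 bp, 11 within 500 bp, and 27 when the whole gene was counted. H3K27ac gave 15, 9 and 23, the pair 12, 5 and 19 under the same settings. Within 500 bp the 3 shares were 20%, 16.4% and 9.09%, against 40.6%, 48.0% and 31.2% of all protein-coding genes. Shares within 1000 bp and over the whole gene are given above. H3K4me1 gave 6 within 1000 bp, 13 within 2500 bp, 18 over the whole gene and 0 with a score of at least 10. The 13 were 23.6%, against 24.9% of all protein-coding genes, and only 1.13% of all genes had one with that score. CYP genes with no summit numbered 34, or 22 over the whole gene, and 22 of 39 at annotated starts only (56.4%, against 32.7% of all genes). The median number of distal sites over all CYP genes was 1. It was 0 within 25000 bp, 3 within 100000 bp, 2 for sites over 1000 bp from boundaries, and 0 for sites over 5000 bp, with a score of at least 10 or with H3K4me1. Over all protein-coding genes it was 1, and under the same settings 0, 3, 2, 1, 0 and 0. For CYP1 to CYP3 it was 2, and under the same settings 1, 6, 5, 1, 1 and 1. For CYP4 it was 0, with 1 within 100000 bp and 2 for sites over 1000 bp from boundaries. For the sterol and steroid genes it was 0.5, and under the same settings 0, 1, 1, 0, 0 and 0. The cause was not tested beyond the width of each window. The remaining 31 of 62 alternative values moved by less. They include the counts without members that share a boundary summit with another protein-coding gene, a setting chosen after seeing the data (H3K4me3 15, pair 10). The share of CYP genes with H3K4me3 lay below that of all protein-coding genes with windows of 500, 1000 and 2500 bp, with a score of at least 10, over the whole gene and at annotated starts. No paired analysis was possible because each mark had 1 library and no result came from a test.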
